A study of Homo sapiens with 12 samples.

Results

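The genes described here are the core of the transforming growth factor β (TGF-β) pathway: the ligands TGFB1, TGFB2 and TGFB3, the receptors TGFBR1, TGFBR2 and TGFBR3, and the intracellular proteins SMAD2, SMAD3, SMAD4 and SMAD7. They were chosen by name from the pathway. All 10 were found among the 63568 genes of the count table and all 10 were among the 25249 genes with enough counts to be tested.

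The ligands are secreted in a latent form and bind a receptor complex at the cell surface, in which TGFBR2 phosphorylates and switches on TGFBR1, while TGFBR3 (betaglycan) presents ligand to TGFBR2. TGFBR1 then phosphorylates SMAD2 and SMAD3, which join SMAD4 and enter the nucleus to regulate transcription, and SMAD7, itself a target gene, holds the receptors back. In breast cancer cells the pathway is known for its part in migration, invasion and the turn to a mesenchymal state.

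RNA was sequenced from 12 samples of MDA-MB-231/GFP cells, a fluorescent derivative of a triple negative breast cancer line, grown as cell and Matrigel droplets on a glass bottom, with 2 samples for each of 6 conditions. C1 and C2 were untreated cells taken on day 2 and on day 4. The other 8 samples received Paclitaxel, a drug that stabilises microtubules, on day 2 at 0.0005, 0.005, 0.05 or 0.5 μM and were taken on day 4. The labels give the genotype as WT for every sample, and the study describes the pairs as biological replicates of this one line. The comparison asks whether genes of the pathway differed between cells left alone and cells given a drug that was used here to inhibit migration.

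Totals ran from 38380629 to 79169121 counts per sample. The C1 samples were the least alike of the 6 pairs, with a correlation of 0.970 across genes against 0.992 to 0.998 for the others, and C1 replicate 2 had the smallest total and the highest mitochondrial share (7.74%). VIM, a mesenchymal marker of this line, had 797 to 1366 CPM (counts scaled to library size), while the receptors ESR1 and PGR and the epithelial cadherin CDH1 stayed at or under 0.46 CPM. ERBB2 (26.6 to 52.4 CPM) and KRT19 (144 to 277 CPM), also listed as low in this line, were clearly present. Between treated and untreated samples 3 of 10 markers listed as present in this line fell, where 11.3% of all genes did: AXL (log2 fold change -0.88, edgeR adjusted p = 0.00113), EGFR (-0.46) and CAV1 (-0.34). Of 6 tested markers listed as low or absent 1 rose, the basal keratin KRT14 (0.199 to 1.39 CPM), where 13.1% of all genes did. Summed over 10 fibroblast markers, the level was 10.5 to 18.8 CPM in untreated and 15.1 to 23.7 CPM in treated samples, and 3 of 8 tested (COL3A1, PDGFRA and FAP) rose, where 13.1% of all genes did. For blood and endothelial markers these sums were 0.0298 to 0.819 and 1.69 to 3.59 CPM, and 2 of 4 tested (PTPRC and ITGAM) rose against the same 13.1%. Levels within the lists were uneven: COL1A1 reached 9.85 CPM, PDGFRB 9.15 and ACTA2 2.07, ITGAM rose from 0.0446 to 1.43 CPM, and COL1A2, DCN, CD3E and HBB stayed at or under 0.153 CPM in every sample. The part of these markers in the changes below was not tested.

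The 250 bases before the annotated start of each ligand gene are shown because one of the 3 ligands, TGFB2, is the gene on which the comparison of treated with untreated samples turns. They are RefSeq sequences on GRCh38.p14, a later build than the GRCh37 used for the counts. The TGFB1 window is chr19:41353923-41354172 on the minus strand, the TGFB2 window chr1:218345086-218345335 on the plus strand, and the TGFB3 window, one of 2 annotated starts, chr14:75983012-75983261 on the minus strand. Capitals mark matches to the 7 motifs named after the sequences.
TGFB1: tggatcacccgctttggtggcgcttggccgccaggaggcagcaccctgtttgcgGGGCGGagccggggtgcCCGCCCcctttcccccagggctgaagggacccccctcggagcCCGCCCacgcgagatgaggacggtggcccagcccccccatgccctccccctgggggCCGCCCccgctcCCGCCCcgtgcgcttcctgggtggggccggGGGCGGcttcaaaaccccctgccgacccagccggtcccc
TGFB2: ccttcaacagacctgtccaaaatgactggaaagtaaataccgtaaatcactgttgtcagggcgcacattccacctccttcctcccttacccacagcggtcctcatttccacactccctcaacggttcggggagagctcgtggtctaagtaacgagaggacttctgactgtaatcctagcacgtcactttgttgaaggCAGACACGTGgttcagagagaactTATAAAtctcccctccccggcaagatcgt
TGFB3: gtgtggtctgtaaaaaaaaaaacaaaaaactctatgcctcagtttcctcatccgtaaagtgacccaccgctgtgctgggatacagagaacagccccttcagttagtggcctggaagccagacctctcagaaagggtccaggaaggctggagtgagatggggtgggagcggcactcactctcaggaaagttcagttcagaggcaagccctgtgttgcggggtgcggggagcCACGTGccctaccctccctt

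The motifs were searched on both strands. The TGFB1 window held 6 copies of the GC box GGGCGG and was 76.8% G and C. That of TGFB2 held no GC box and was 50.4% G and C. It held the TATA box TATAAA at -29 to -24 and, sharing 2 bases at -49 and -48, a CAGACA motif (bound by SMAD3 and SMAD4) and an E-box CACGTG. In the TGFB3 window shown there was 1 E-box at -20 to -15 and no TATA box. The window at the other TGFB3 start, not shown, held a TATA box at -30 to -25 and no E-box. Among all 35116 promoters of this length, 42.6% held a GC box, 10.7% a TATA box, 13.6% that motif and 6.34% the E-box. The SMAD palindrome GTCTAGAC (0.182% of promoters) and the cyclic AMP element TGACGTCA (1.65%) were in none of the 26 windows of the 10 genes, and the AP-1 site TGACTCA (4.2%) was in 1, at an alternative start of SMAD3. These are matches of letters, and binding was not measured.

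On GRCh37, the ligand genes lie at chr19:41807492-41859827 (TGFB1), chr1:218518678-218617961 (TGFB2) and chr14:76424440-76449354 (TGFB3). The receptor genes are at chr9:101866320-101916474 (TGFBR1), chr3:30648093-30735634 (TGFBR2) and chr1:92145900-92371892 (TGFBR3). SMAD2 (chr18:45335328-45457517), SMAD7 (chr18:46446223-46477335) and SMAD4 (chr18:48554898-48611415) share a chromosome, and SMAD3 lies at chr15:67356101-67487511. Counts are of reads in exons. Genes on the opposite strand overlapped 11.59% of the exon bases of TGFB2 (TGFB2-AS1), 6.59% of TGFB1 (HNRNPUL1), 3.12% of TGFB3 (TGFB3-AS1) and 1.82% of SMAD3, and a gene on the same strand overlapped 4.93% of SMAD4. The sources used here do not say whether counting used strand, so reads of these stretches may belong to either gene.

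All 3 receptors, all 4 SMADs and 2 of the 3 ligands were well expressed. Levels between genes are compared per kilobase of the MANE Select transcript, as the mean CPM per kb over the 12 samples. TGFBR2 stood highest at 60.6 CPM per kb, followed by SMAD3 at 28.9, TGFB1 at 16.2, SMAD7 at 13.6, TGFBR1 at 10.8 and TGFB2 at 9.37. SMAD4 (4.66), TGFBR3 (4.37) and SMAD2 (2.28) were lower on this scale, where the SMAD2 value is divided by a transcript of 34626 bases. With the length of all annotated exons in place of that transcript, TGFB2 (9.09) passed TGFBR1 (8.81), and SMAD4 (2.09) came below TGFBR3 (3.23) and SMAD2 (2.17). TGFB3 was lowest at 0.327 CPM per kb, from 27 to 125 counts per sample. Among the ligands, TGFB1 thus exceeded TGFB2 per length, although TGFB2 had the higher mean CPM (55 against 45).

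**Figure D1:**
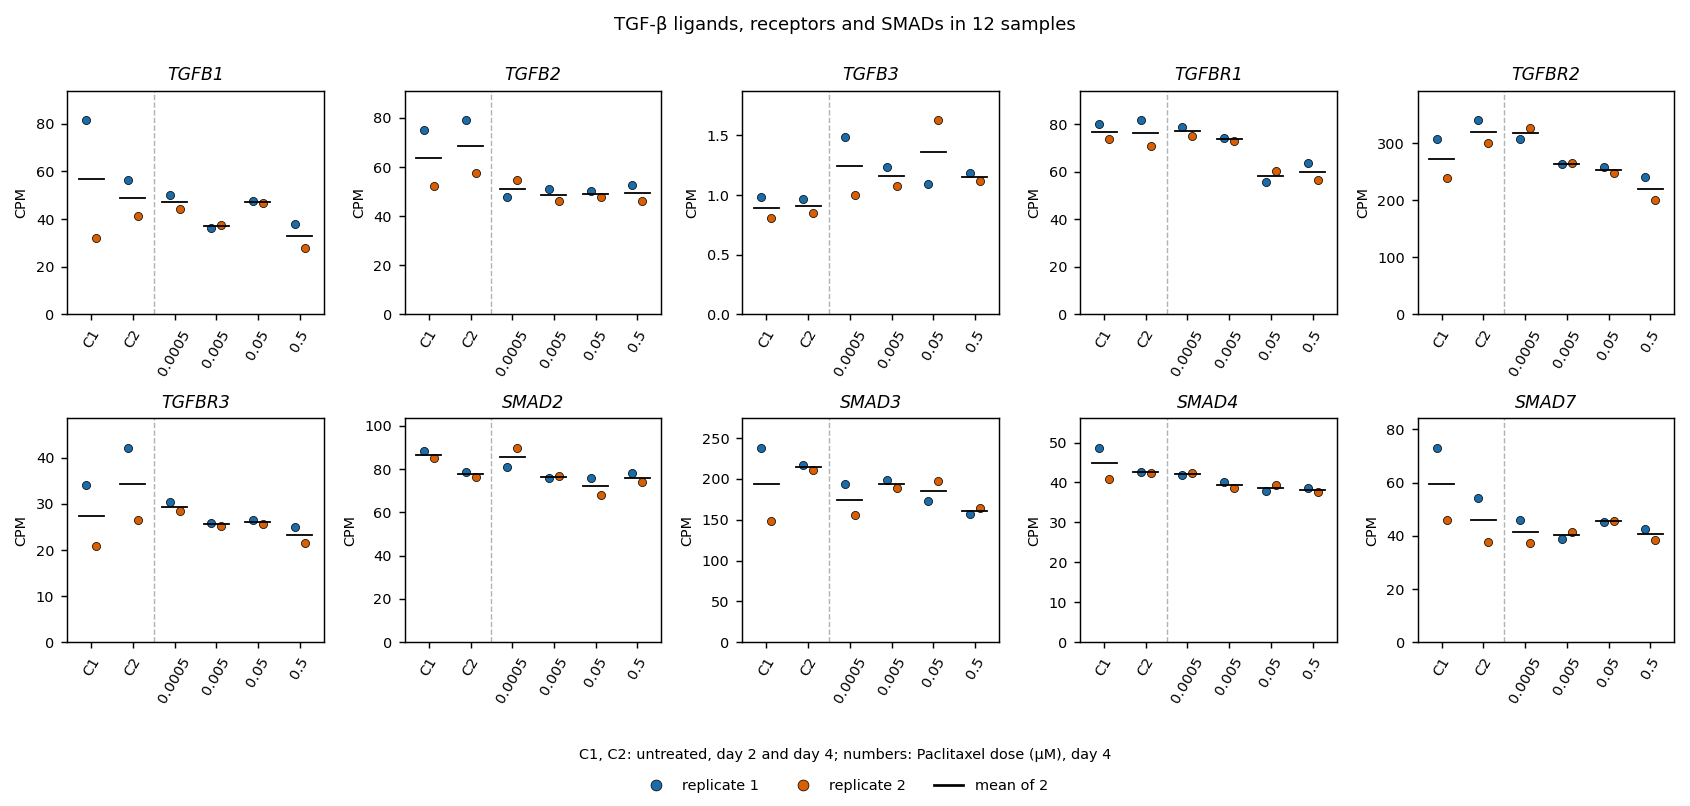
Level of each gene in CPM (linear axis from 0) in the 12 samples, by condition, with replicate 1 in blue, replicate 2 in orange and the mean of the pair as a bar. For TGFB2 the treated samples lie between 46.1 and 54.7 CPM and the untreated between 52.1 and 79.2, while for TGFB3 all treated samples lie above all untreated ones.

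TGFB2 was the only one of the 10 genes to pass the test between treated and untreated samples, where it fell by 0.42 on the log2 scale. It had 75.1 and 52.1 CPM in C1, 79.2 and 57.6 in C2, 47.7 and 54.7 with 0.0005 μM of the drug, 50.9 and 46.1 with 0.005 μM, 50.1 and 47.7 with 0.05 μM, and 52.7 and 46.2 with 0.5 μM. Treated samples kept within a narrow band, and only C1 replicate 2 among the untreated samples fell inside it, below 2 treated samples. The means were 66.0 ± 13.2 CPM (SD, n = 4) untreated and 49.5 ± 3.13 (SD, n = 8) treated. With edgeR's quasi-likelihood test this was a log2 fold change of -0.42 (SE 0.11, 95% interval -0.64 to -0.19, adjusted p = 0.00999). By the same test 24.4% of all tested genes were called, 13.1% higher and 11.3% lower, so 1 call among 10 genes is below that background. The call was lost without C2 replicate 1 (log2 fold change -0.32, adjusted p = 0.0557) and with C2 alone as the control in the model of all samples (-0.47, adjusted p = 0.0712), where 9.74% of genes were called. With both C1 samples left out it was -0.45 (adjusted p = 0.0119), and 13.6% of genes were called. In bulk RNA, a lower level from fewer cells of a type and from less RNA per cell cannot be told apart.

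The difference in TGFB2 was of similar size at the 4 doses. The log2 fold changes against C2 were -0.42 for 0.0005 μM, -0.49 for 0.005 μM, -0.48 for 0.05 μM and -0.47 for the dose of 0.5 μM, with SEs of 0.20 each and adjusted p from edgeR between 0.153 and 0.303. The 4 values share the C2 samples, and without C2 replicate 1 they were -0.17, -0.25, -0.24 and -0.22, set against the 1 C2 sample left. The slope over the 8 treated samples was -0.01 per unit of log10 dose (95% interval -0.09 to 0.06). Ordered by mean, C2 and C1 came first and the 4 doses after them, and the sample ranges of all 5 pairs of neighbours in that order overlapped. The genes whose log2 CPM most resembled TGFB2 over the 12 samples were ARID2 (Pearson r = 0.972), TENM3 and TK2 (0.967 each), of 11082 genes compared. That likeness is a description over libraries shared by all the genes.

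TGFB1, the ligand most studied in tumours, varied more between samples than any of the other 9 genes, with 2.92 times as much in the highest as in the lowest sample. It had 81.6 and 31.9 CPM in C1, 56.5 and 41.4 in C2, 50.2 and 44.1 with 0.0005 μM of the drug, 36.1 and 37.6 with 0.005 μM, 47.7 and 46.9 with 0.05 μM, and 38.1 and 28.0 with 0.5 μM. The C1 pair alone spanned nearly the whole range, and treated and untreated samples overlapped widely. The log2 fold change of treated against untreated samples was -0.36 (SE 0.19, 95% interval -0.77 to 0.04, edgeR adjusted p = 0.181). It was -0.08 without C1 replicate 1 and -0.24 with both C1 samples left out. TGFB1 passed with GC content and length offsets, where 3 of the 10 genes (TGFB1, TGFB2 and SMAD7) and 35.2% of all genes were called. Without C1 replicate 2, 5 of the 10 (TGFB1, TGFB2, TGFBR3, SMAD3 and SMAD7) and 26.4% of all genes were called.

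TGFB3 was scarce and ran the other way. Its level was 0.983 and 0.805 CPM in C1, 0.966 and 0.846 in C2, 1.49 and 1.0 with 0.0005 μM of the drug, 1.24 and 1.08 with 0.005 μM, 1.10 and 1.63 with 0.05 μM, and 1.19 and 1.12 with 0.5 μM. Every treated sample was above every untreated one, which held for 7.39% of all tested genes and for none of the other 9 described here. The log2 fold change was 0.44 (SE 0.17, 95% interval 0.08 to 0.80), and it missed the threshold after adjustment (edgeR adjusted p = 0.0665). Without the second replicate at 0.0005 μM it passed (adjusted p = 0.0427).

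TGFBR2 was the receptor with the clearest trend over dose. It had 307 and 238 CPM in C1, 341 and 299 in C2, 307 and 327 with 0.0005 μM of the drug, 263 and 265 with 0.005 μM, 259 and 248 with 0.05 μM, and 241 and 199.6 with 0.5 μM. C1 replicate 2 was below all treated samples but one at 0.5 μM. The lowest dose lay within the range of C2, while both samples of each higher dose were below C2 replicate 2, and neither 0.005 and 0.05 μM nor 0.05 and 0.5 μM overlapped. The slope was -0.16 log2 units per unit of log10 dose (SE 0.04, 95% interval -0.25 to -0.07, edgeR adjusted p = 0.0469), where 3.15% of genes had a called slope and 2.11% a falling one. That call is close to the threshold: in turn, each of 6 of the 8 treated samples, when left out, ended it (adjusted p 0.0576 to 0.257), these being both samples at 0.0005 and at 0.005 μM and 1 each at 0.05 μM (replicate 1) and 0.5 μM (replicate 2). Offsets for GC content and length ended it too (adjusted p = 0.0538), whereas DESeq2 kept it (adjusted p = 0.000993).

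TGFBR1, the kinase that phosphorylates SMAD2 and SMAD3, had a slope of similar size that missed the threshold (-0.14, SE 0.04, 95% interval -0.23 to -0.06, edgeR adjusted p = 0.0633). DESeq2 called it (adjusted p = 0.0108), as did edgeR without a filter on low counts (0.0338) and edgeR with either the second 0.05 μM sample (0.0467) or the first 0.5 μM sample (0.0481) removed, 4 of 15 alternatives in all. Its level was 80.0 and 73.7 CPM in C1, 81.9 and 71.0 in C2, 79.1 and 75.0 with 0.0005 μM of the drug, 74.4 and 73.1 with 0.005 μM, 55.7 and 60.4 with 0.05 μM, and 63.7 and 56.5 with 0.5 μM. Both samples at each of the 2 highest doses were below all 8 others, with a gap between the 0.005 and 0.5 μM samples. Against C2 the log2 fold change at 0.05 μM was -0.40 (SE 0.13, adjusted p = 0.0927), a level of 58.1 ± 3.30 CPM against 76.4 ± 7.74 (SD, n = 2 each, edgeR).

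TGFBR3 had 34.1 and 20.8 CPM in C1, 42.2 and 26.6 in C2, 30.4 and 28.4 with 0.0005 μM of the drug, 25.9 and 25.3 with 0.005 μM, 26.4 and 25.7 with 0.05 μM, and 25 and 21.6 with 0.5 μM. Its untreated pairs differed by 1.64 times (C1) and 1.59 times (C2), more than any treated pair, and all treated samples lay inside that span. The slope was -0.10 (95% interval -0.18 to -0.02, edgeR adjusted p = 0.16).

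**Figure D2:**
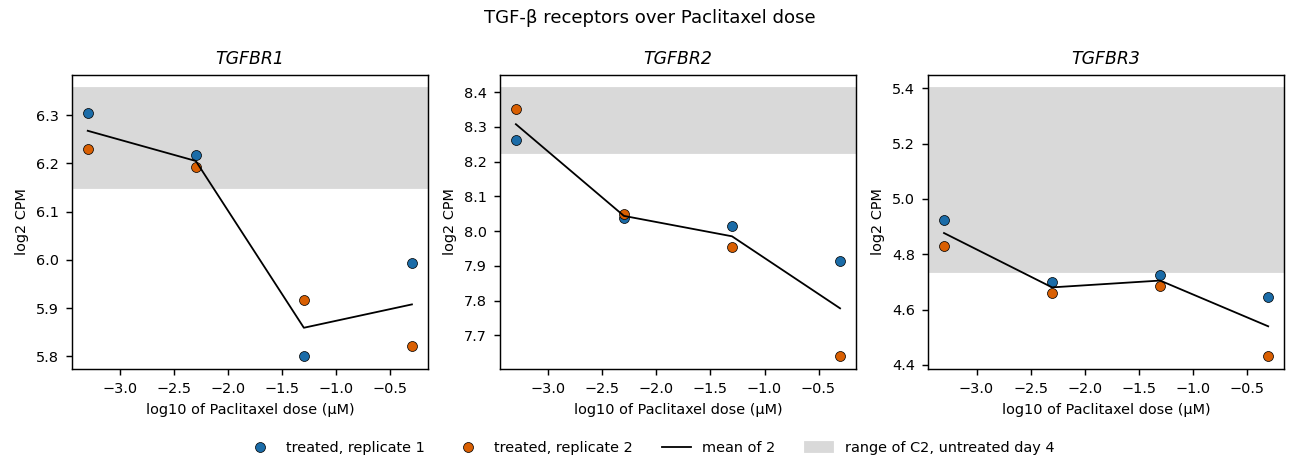
Log2 CPM of TGFBR1, TGFBR2 and TGFBR3 against log10 of the Paclitaxel dose in the 8 treated samples, with replicates as points, the line through the means of 2, and the range of the C2 samples as a grey band; the vertical axes do not start at 0. The TGFBR2 means are lower at each step, those of TGFBR1 lie below the band at 0.05 and 0.5 μM, and those of TGFBR3 are at or below the lower edge of a wide band from 0.005 μM.

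SMAD2, SMAD3 and SMAD4, which carry the signal to the nucleus, were among the steadier genes. SMAD2 stayed between 67.9 and 89.9 CPM and SMAD4 between 37.6 and 48.7 CPM across all 12 samples, and their log2 fold changes in treated samples were -0.08 (95% interval -0.27 to 0.10) and -0.14 (-0.31 to 0.03). The mean level of SMAD4 was lower at each step from C1 through C2 and the rising doses to 0.5 μM (44.8 to 38.1 CPM), and every untreated sample but C1 replicate 2 was above all treated samples. SMAD3 had 238 and 149 CPM in C1, 218 and 210.4 in C2, 193 and 156 with 0.0005 μM of the drug, 199 and 189 with 0.005 μM, 173 and 198 with 0.05 μM, and 157 and 165 with 0.5 μM. Both C2 samples were above all treated samples, but the C1 pair held both the highest and the lowest value, and the change was -0.19 (95% interval -0.44 to 0.06, edgeR adjusted p = 0.266).

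SMAD7, the inhibitory member and a direct target of the pathway, had 73.2 and 46.0 CPM in C1, 54.2 and 37.7 in C2, 46.0 and 37.2 with 0.0005 μM of the drug, 38.9 and 41.5 with 0.005 μM, 45.3 and 45.7 with 0.05 μM, and 42.7 and 38.4 with 0.5 μM. The first replicates of C1 and C2 were highest, and C2 replicate 2 was lower than 7 of the 8 treated samples. The log2 fold change was -0.33 (SE 0.13, 95% interval -0.61 to -0.05), which did not pass after adjustment (edgeR adjusted p = 0.0784). It was -0.14 without C1 replicate 1 (adjusted p = 0.437) and -0.12 with both C1 samples left out, and it passed without C1 replicate 2 (-0.37), without C2 replicate 2 (-0.47) and with GC content and length offsets (-0.47).

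Replicate 1 exceeded replicate 2 for all 10 genes in C1 and again in C2. Of all tested genes, 34% did so on both days. The gap was 2.56 times for TGFB1 in C1, and 1.03 to 1.04 times for SMAD2 on both days. In treated pairs replicate 1 was higher for 6, 6, 5 and 9 of the 10 genes at 0.0005, 0.005, 0.05 and 0.5 μM. Of all tested genes, 52.1%, 49.5%, 52.8% and 48.3% were higher in replicate 1 at these doses. The untreated spread therefore limits each comparison with C1 or C2, and what made these replicates differ was not tested.

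Taken over the genes, 9 of 10 had lower fitted levels in treated than in untreated samples, where 50.2% of all genes did. The median log2 fold change was -0.19 against -0.00194 over all genes. The 10 genes were measured in the same 12 libraries, so their directions are not separate observations. At 0.5 μM against C2 every gene but TGFB3 was again lower, where 47% of all genes were, with a median of -0.38 against 0.04 over all genes. None of the 10 passed by edgeR in the model of all 12 samples, in which 6.32% of genes were called. The nearest was TGFBR2 (log2 fold change -0.54, SE 0.16, 95% interval -0.89 to -0.19, adjusted p = 0.0698), which DESeq2 called. Beside it stood TGFB1 (-0.57), TGFBR3 (-0.56), TGFB2 (-0.47), SMAD3 (-0.41) and TGFBR1 (-0.35), and 4 of the 10 had an unadjusted p under 0.05, where 22.9% of all genes did. Without C2 replicate 1, which leaves 1 sample in that arm, the log2 fold changes were -0.44 for TGFBR2, -0.39 for SMAD3, -0.33 for TGFB1, -0.24 for TGFBR1, -0.22 for TGFB2 and -0.19 for TGFBR3.

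The count of calls at 0.5 μM depended also on the C1 samples, which are in neither arm of the comparison but enter the estimate of the spread. Without C1 replicate 1 or without C1 replicate 2, the same 6 genes passed (TGFB1, TGFB2, TGFBR1, TGFBR2, TGFBR3 and SMAD3), while the share of all genes called rose to 18.5% and 18.8%. With both C1 samples left out, an alternative chosen after seeing the data, 6 passed again and 20.0% of all genes were called. All 6 were lower at 0.5 μM.

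At the lower doses no gene passed by edgeR or by DESeq2. The number with an unadjusted p under 0.05 was 0 at 0.0005 μM, 1 at 0.005 μM and 2 at 0.05 μM, where 17%, 18.7% and 23.7% of all genes had one. After adjustment 2.34%, 3.28% and 8.32% of all genes were called at these doses. Leaving out either or both C1 samples gave 1 call at 0.005 μM (TGFB2) and 2 at 0.05 μM (TGFB2 and TGFBR1), where 12.4% and 18% of all genes were called without C1 replicate 1, 12.1% and 18.1% without C1 replicate 2, and 12.7% and 19.2% with both left out.

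**Figure D3:**
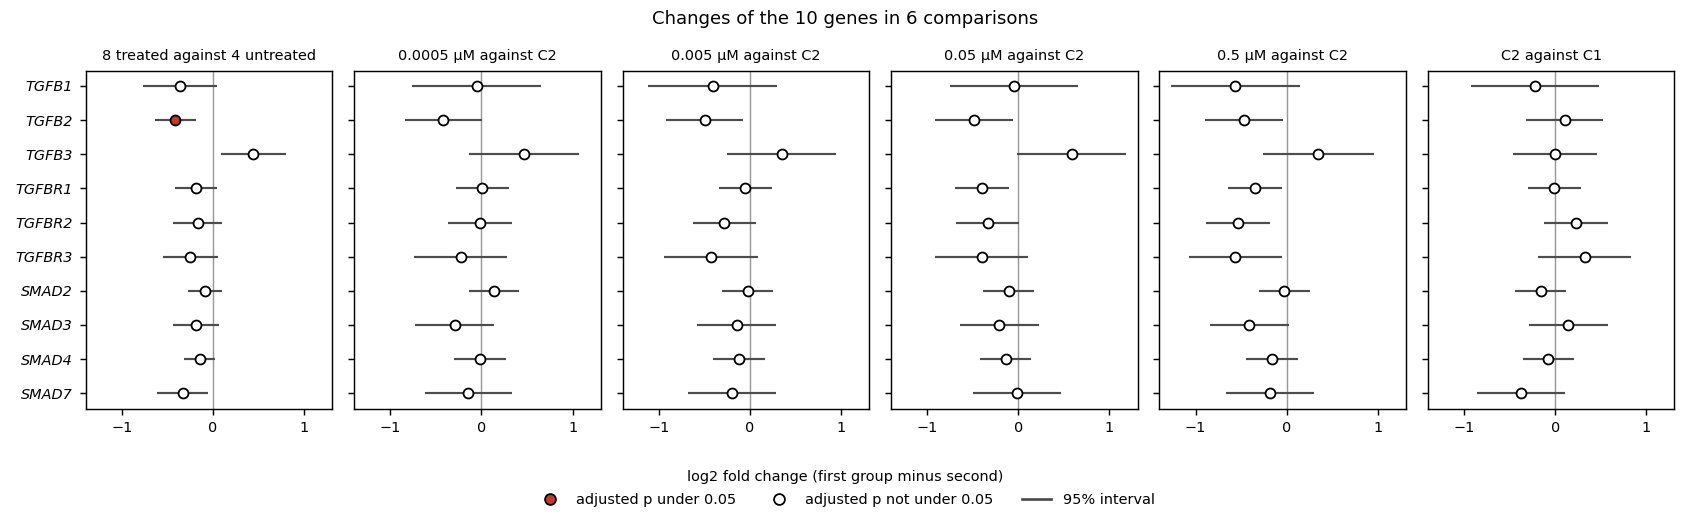
Log2 fold change (first group minus second) of the 10 genes in 6 comparisons, with 95% intervals; filled points passed at an adjusted p under 0.05. Only TGFB2 in the first panel is filled, and at 0.5 μM the 3 receptors and TGFB2 have intervals below 0.

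Between days, none of the 10 genes passed in C2 against C1 by edgeR or DESeq2, where edgeR called 0.325% of all genes. None had an unadjusted p under 0.05, where 10% of all genes did. The intervals were wide: the log2 fold change was -0.22 for TGFB1 (95% interval -0.92 to 0.49) and 0.32 for TGFBR3 (-0.19 to 0.83). TGFB1 turned direction with the C1 sample kept, at 0.62 (adjusted p = 0.0478) without C1 replicate 1 and -0.71 (adjusted p = 0.0204) without C1 replicate 2. In those fits 10% and 7.03% of all genes were called, and 3 (TGFB1, TGFBR3 and SMAD3) and 2 (TGFB1 and SMAD7) of the 10 passed. Each of these fits has 1 C1 sample, which is assumed to vary like the samples of the other conditions, so the calls rest on that library.

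No ratio between 2 members passed a test between treated and untreated samples. The log2 ratio of TGFB2 to TGFB1 counts was 0.39 ± 0.36 (SD, n = 4) in untreated and 0.29 ± 0.27 (SD, n = 8) in treated samples (exact two-sided permutation test, p = 0.608). For TGFBR2 to TGFBR1 it was 1.94 ± 0.18 and 1.97 ± 0.15 (exact permutation p = 0.768), for SMAD7 to SMAD3 -1.97 ± 0.37 and -2.09 ± 0.15 (exact permutation p = 0.444), and for SMAD2 to SMAD3 -1.29 ± 0.32 and -1.20 ± 0.23 (exact permutation p = 0.586). Adjusted over the 4 ratios, each exact p was 0.768.

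Counts for the lists of pathway genes are to be read against all tested genes, of which 13.1% were called higher and 11.3% lower in treated samples, 24.4% in all. The lists overlap: that of response genes includes SMAD7, one of the 10, and its SKIL and LTBP2 stand in another list as well. With both C1 samples left out, the calls of GDF15, INHBB, PTHLH, TAGLN, LTBP4, BAMBI, ENG, SMURF2, SMAD1, SMAD5 and SMAD6 were lost, and 13.6% of all genes were called. Those of INHBA, PTGS2, SNAI1, CCN2, CCN1, IL11, COL4A1, TGIF1 and SP1 were kept.

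Treated samples had more INHBA, which encodes the βA subunit of activin A, a ligand that signals through the same SMAD2 and SMAD3. INHBA had 3.29 and 2.65 CPM in C1, 3.45 and 3.61 in C2, 23.3 and 27.9 with 0.0005 μM of the drug, 18.3 and 16.6 with 0.005 μM, 14.0 and 15.4 with 0.05 μM, and 8.95 and 10.9 with 0.5 μM. The lowest treated sample was well above the highest untreated one, and the rise was greatest at the lowest dose. Of all tested genes, 7.39% had every treated sample above every untreated one. INHBA rose by a log2 fold change of 2.37 in treated samples (SE 0.26, edgeR adjusted p = 1.6e-05), passed against C2 at all 4 doses, and fell with dose (slope -0.44, SE 0.04, adjusted p = 8.25e-05).

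Of 16 tested genes listed under the activin branch, 4 rose and 1 fell (median 0.05), against 24.4% of all genes called. The list mixes ligands, receptors and inhibitors, so this is not a count of ligands that act through SMAD2 and SMAD3. Besides INHBA these were GDF15, a distant family member released under stress (log2 fold change 0.99, adjusted p = 0.00617), INHBE and LEFTY2, both scarce (treated means of 1.04 and 0.115 CPM), and INHBB, which fell by 0.41 (adjusted p = 0.0477). The activin receptors ACVR1B, ACVR2A and ACVR2B and the activin trap FST, at 68.1 and 67.7 CPM untreated and treated, did not pass (edgeR). The INHBB call was lost in 10 of 21 alternatives, among them the removal of C1 replicate 1, C2 replicate 1, either sample at 0.0005 or 0.005 μM, or replicate 2 at 0.5 μM.

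Among 27 tested TGF-β response genes 4 rose and 4 fell, with a median of -0.15, against 24.4% of all genes called. The genes that fell were CCN2 (-0.92, SE 0.18, adjusted p = 0.00192) and CCN1 (-0.78), matricellular proteins also driven by YAP, IL11 (-0.68), a cytokine, and COL4A1 (-0.60), a basement membrane collagen (edgeR). CCN2 had 719 and 318 CPM in C1, 528 and 344 in C2, 301 and 273 with 0.0005 μM of the drug, 217 and 210.2 with 0.005 μM, 293 and 286 with 0.05 μM, and 247 and 189 with 0.5 μM. Every untreated sample exceeded every treated one, which held for 1456 of the 25249 tested genes. With C2 alone as the control in the model of all samples, CCN1, IL11 and COL4A1 lost their calls and CCN2 kept its own. COL4A1 also lost it without C1 replicate 1. IL11 differed by -0.61 in C2 against C1 (edgeR adjusted p = 0.243). At the single doses against C2 it ran from -0.49 to -0.27, and none passed.

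The response genes that rose were PTGS2 (1.72, SE 0.30, adjusted p = 0.000666), which makes prostaglandins, SNAI1 (0.65), a repressor of E-cadherin, PTHLH (0.55) and TAGLN (0.49, adjusted p = 0.0464 by edgeR). PTGS2 had 32.2 and 39.3 CPM in C1, 72.6 and 95.1 in C2, 289 and 281 with 0.0005 μM of the drug, 219 and 222 with 0.005 μM, 149.6 and 162 with 0.05 μM, and 117 and 138 with 0.5 μM. Its treated samples were all above its untreated ones, as for 7.39% of all tested genes, and like INHBA it was highest at the lowest dose. PTGS2 also rose from C1 to C2 (1.23, adjusted p = 0.00734 by edgeR). The TAGLN call held in 8 of 21 alternatives and was lost without any 1 sample other than C2 replicate 2 and replicate 2 at 0.0005 μM. SNAI1 and PTHLH lost their calls with GC content and length offsets and with C2 alone as the control, and PTHLH also without C1 replicate 1. TGFBI (-0.07, adjusted p = 0.781), PMEPA1 (-0.29, adjusted p = 0.231) and SKIL (-0.03, adjusted p = 0.866), 3 known targets of the pathway, did not pass by edgeR.

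Of 15 tested genes that store or activate latent ligand, 1 rose and 1 fell, where 24.4% of all genes were called. The gene that fell was LTBP4 (-0.40, adjusted p = 0.0441), which tethers latent TGF-β in the matrix. The other that passed, MMP9, rose from 0.0226 to 0.209 CPM, a very low level (edgeR). LTBP1 (0.44, adjusted p = 0.0603) and THBS1 (-0.34, adjusted p = 0.171), an activator of latent ligand, did not pass by edgeR. The LTBP4 call held in 11 of 21 alternatives and was lost without C1 replicate 1, either C2 or 0.5 μM sample, or replicate 2 at 0.0005 or 0.005 μM.

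Among 16 accessory receptors and receptor regulators 2 rose and 2 fell (median -0.08), against 24.4% of all genes called. BAMBI, a decoy receptor, rose (0.40, adjusted p = 0.0248), as did CD109, from 0.137 to 0.357 CPM. ENG, a co-receptor, fell by 0.65 on the log2 scale (adjusted p = 0.0279), and SMURF2, a ubiquitin ligase that acts on the receptors, by 0.22 (adjusted p = 0.0496, edgeR). The SMURF2 call held in 5 of 21 alternatives, and only the removal of replicate 2 at 0.05 μM kept it among those that left out 1 sample. BAMBI and ENG lost their calls with C2 alone as the control. BAMBI also lost its call with GC content and length offsets and without C2 replicate 2 or replicate 2 at 0.05 μM, and ENG without a filter on low counts and without C1 replicate 1, with log2 fold changes over all alternatives of 0.12 to 0.51 and -0.79 to -0.27.

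Of 17 other SMADs, corepressors and cofactors, 2 rose and 3 fell, with a median of -0.11, against 24.4% of all genes called. TGIF1, a corepressor that binds SMAD2 and SMAD3, rose from 24.7 ± 3.56 CPM (SD, n = 4) to 34.9 ± 2.55 (SD, n = 8), a log2 fold change of 0.50 (adjusted p = 0.00192 by edgeR). SMAD1, of the bone morphogenetic protein branch, rose (0.40), while SMAD5 of the same branch (-0.30), the inhibitory SMAD6 (-0.46) and the transcription factor SP1 (-0.36) fell. With C2 alone as the control in the model of all samples all 5 lost their calls. SP1 and SMAD6 also lost theirs without C1 replicate 1 or C2 replicate 1, SMAD6 without replicate 2 at 0.0005 μM, and SMAD5 without a filter on low counts.

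**Figure D4:**
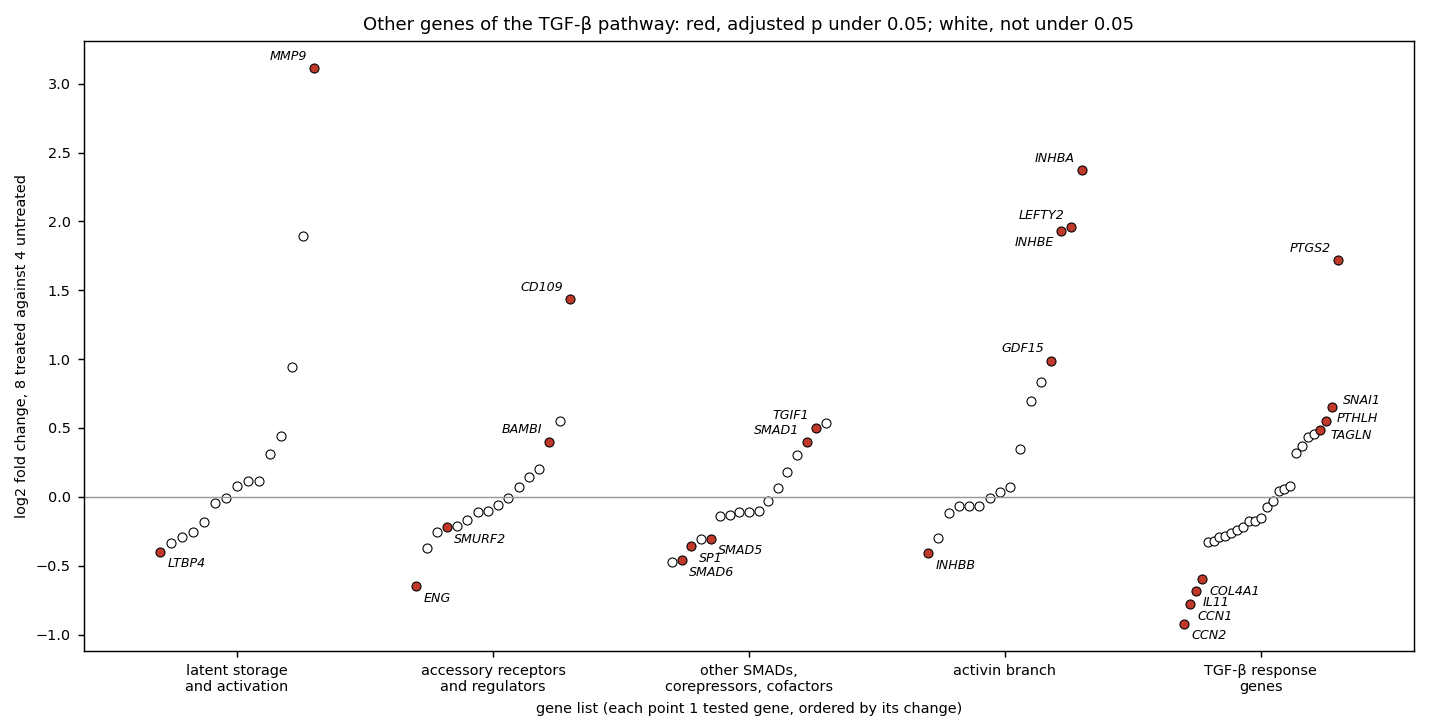
Log2 fold change of each tested gene of 5 pathway lists in 8 treated against 4 untreated samples, ordered within its list; red points passed at an adjusted p under 0.05 and carry their names. Each list holds genes that rose and genes that fell, with INHBA at 2.37 and CCN2 at -0.92 as examples.

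**Figure D5:**
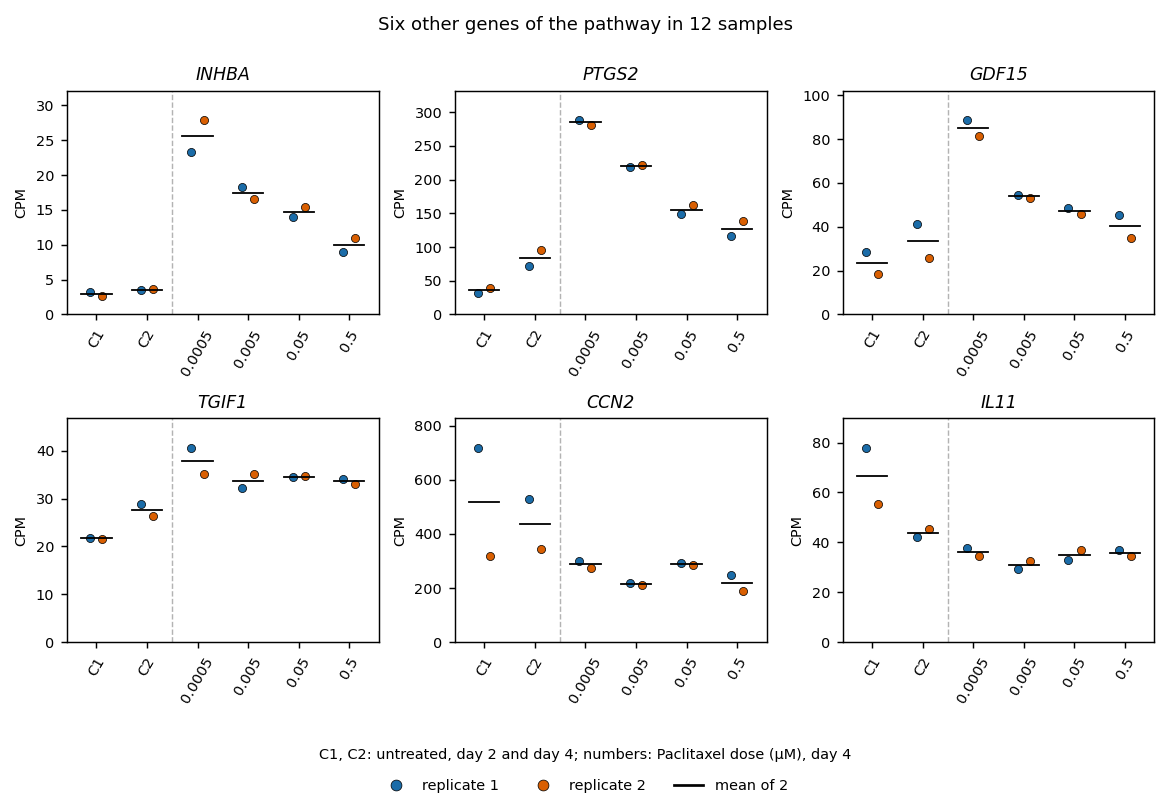
Levels in CPM (linear axis from 0) of 6 pathway genes in the 12 samples, with replicate 1 in blue, replicate 2 in orange and the mean of 2 as a bar. INHBA, PTGS2 and GDF15 are highest at 0.0005 μM and lower at each higher dose, TGIF1 is higher in every treated sample, and CCN2 and IL11 are lower in every treated sample. Of all tested genes, 7.39% had every treated sample above every untreated one, and 1456 of 25249 had every treated sample below.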

How the data were processed

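Per the study's methods, the authors removed adapters and poor bases with Trimmomatic 0.39, aligned paired reads to GRCh37 with STAR 2.7.5, kept unique alignments and counted exonic reads per gene. The deposited files hold whole-number counts per sample as the authors made them, with no scaling. The trimming and alignment versions also stand in the submitters' processing notes.

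Counts were analysed in R 4.3.3 with edgeR 4.0.16: TMM scaling, filterByExpr by condition, robust quasi-likelihood tests and Benjamini-Hochberg adjustment over all tested genes (threshold 0.05). A 2-group fit set the 8 treated against the 4 untreated samples. Its treated samples are all of day 4 and its untreated samples of days 2 and 4, so day is partly mixed with treatment. It also takes the 4 doses together. Each dose was compared with C2, and C2 with C1, in 1 model of the 6 conditions. Slopes on log10 dose used the 8 treated samples. Fold changes are log2, SEs are the log2 fold change over the root of F, intervals are at 95%, CPM were scaled by TMM, and 2 was the prior count for log2 CPM. Ratios added 0.5 to each count.

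Lists were compiled by hand. The 10 genes and the lists were chosen with earlier results of these data known. Genes outside the 10 are named if called in treated against untreated samples at a mean of at least 1 CPM, up to 4 per direction and list, or as well known targets and regulators (CCN2, TGFBI, PMEPA1, SKIL, INHBA, LTBP1 and THBS1). MMP9, CD109, INHBE and LEFTY2, the activin receptors and FST, and the markers of identity and of other cell types were named after their values were seen. Genes like a called member are the 3 with the highest Pearson r among genes of at least 5 CPM. Lengths and positions come from GENCODE release 44 on GRCh37, and promoters from RefSeq. Alternatives were DESeq2 1.42.0, RLE scaling, other filters, no robust estimation, a replicate block, GC content and length offsets, the samples of a comparison alone, C2 alone as control and each sample left out. Leaving out both C1 samples was chosen after seeing the data. A few genes in the lists are not reported here. The procedure was tested on simulated data.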

Additional observations from a re-analysis of the deposited data

Results flagged for a closer look

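In the log2 ratio of SMAD2 to SMAD3 counts, C1 replicate 2 stood apart from the other untreated samples at -0.8065, with the nearest at -1.434 (Dixon's gap over range 0.953). Of 28 groups of samples checked in this way 1 had such a sample, where chance gives about 1 in 20.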

How the results depend on the processing

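Under every alternative run, TGFB2 was lower in treated than in untreated samples (log2 fold change -0.49 to -0.32). The number of the 10 genes called was 1 in treated against untreated samples, and it was 3 with GC content and length offsets, 0 with C2 alone as control, and 0 to 5 when leaving out 1 sample. At 0.5 μM the count of 0 became 1 with DESeq2 (9.18% of all genes called) and with offsets (13.3%), 3 without a filter (5.74%), 2 with the 4 samples alone (11.4%), 6 with both C1 samples left out (20%), and 0 to 6 when leaving out 1 sample. At 0.0005 μM it was 1 with the 4 samples alone (12%). Leaving out 1 sample gave 0 to 1 at 0.005 μM, 0 to 2 at 0.05 μM and 0 to 3 for C2 against C1, and both C1 samples left out gave 1 and 2 at those doses. For the slope it was 2 with DESeq2 (6.74%) and without a filter (3.03%), 0 with offsets (3.14%), and 0 to 2 when leaving out 1 sample. With a replicate block the slope count was 0 (1.68% of all genes, TGFBR2 adjusted p = 0.0857 by edgeR), and the block changed no other count of the 10 genes. The replicate numbers did not pair the samples: 7 of 15 pairs of conditions had a correlation of deviations over 0.1 (-0.579 to 0.573).

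Some changes that did not pass turned direction. SMAD7's slope was -0.00036 with DESeq2, -0.00037 with RLE scaling, and -0.0274 to 0.0437 over all alternatives. Leaving out 1 sample, the slope of TGFB3 ran from -0.0678 to 0.0641 and that of TGFB2 from -0.0425 to 0.0154. SMAD2 was 0.0442 at 0.5 μM with offsets and 0.00789 in treated samples with both C1 samples left out. At 0.5 μM, leaving out 1 sample gave -0.0998 to 0.00922 for SMAD2 and -0.43 to 0.10 for SMAD7. For C2 against C1 it gave -0.71 to 0.62 for TGFB1, -0.67 to 0.0018 for SMAD7 and -0.0558 to 0.73 for TGFBR3. With C2 alone as control the difference (treated minus untreated) in the log2 ratio of TGFBR2 to TGFBR1 was -0.0975 and that of SMAD7 to SMAD3 0.155. Leaving out 1 sample, this difference for the ratio of TGFB2 to TGFB1 ran from -0.269 to 0.00717 and that of TGFBR2 to TGFBR1 from -0.0551 to 0.0729. The causes were not tested. Offsets moved the median of all genes by -0.128 in treated samples. With 2 samples a condition, intervals at single doses were wide.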
